A study of Mus musculus with 43 samples.

Results

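The 10 genes described here mark inhibitory interneurons and were followed in mouse brain RNA-seq libraries. They encode the enzymes that make the transmitter GABA (Gad1, Gad2), the transporter that loads it into vesicles (Slc32a1), the calcium-binding protein parvalbumin (Pvalb) and 6 neuropeptide precursors (Sst, Npy, Vip, Cck, Crh and Tac2). They were picked by symbol, and each was found as 1 gene row among 55804 gene rows in each of 2 expression tables. All 10 passed the filter on low values, a mean of at least 1 TPM (a gene's length-scaled share of its library), which 16776 gene rows passed in the first table and 17592 in the second.

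The study gave CDDO-2P-Im, a synthetic triterpenoid that induces the transcription factor NRF2, to 2 mouse models of Alzheimer pathology. AppNL-G-F/NL-G-F mice carry a humanised amyloid-β sequence with familial disease mutations in their own App gene, so no transgene promoter is involved. At 6 months of age, 13 such libraries came from mice given 30 µmol/kg of the compound by mouth 3 times a week for 4 weeks, 11 came from AppNLGF mice given vehicle, and 4 came from wild-type mice given vehicle. APPV717I::TAUP301L mice express mutant human APP and TAU. At 11 months, 5 libraries came from such mice given the same dose for 2 weeks, 5 from APP/TAU mice given vehicle, and 5 from wild-type mice given vehicle. The vehicle was DMSO and Cremophor EL in PBS. The labels do not name the promoter that drives APP and TAU. They number the libraries without tying them to single animals, and the p-values below therefore cover only the spread among libraries.

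GABA is made from glutamate by 2 glutamate decarboxylases, GAD67 (Gad1) and GAD65 (Gad2). The first supplies GABA throughout the cell and the second mainly serves the synaptic ending. Cortical and hippocampal interneurons fall into classes named after parvalbumin, somatostatin and VIP, and most classes release a peptide beside GABA. These genes are not private to interneurons: striatal projection neurons and cerebellar Purkinje cells also make GABA, cortical projection neurons also express Cck, and Crh and Tac2 are expressed in the hypothalamus as well. In bulk tissue, fewer cells of a type and less RNA per cell cannot be told apart.

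Several of the peptide genes are textbook targets of CREB, which binds the cAMP response element (CRE) and was worked out on the somatostatin promoter. The matches in the peptide genes Sst, Vip and Cck are shown; no link between these letters and the levels was tested. The letters TGACGTCA (the full CRE, its own reverse complement) and TGACG (the short form of the CRE, contained in the full one) were searched on both strands in the 250 bases before each RefSeq start (GRCm38.p6). Capitals mark the match, and each sequence reads 5′ to 3′ on the gene's strand.
Sst, chr16:23890874-23890903, minus strand: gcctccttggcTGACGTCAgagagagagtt
Vip, chr10:5639109-5639173, plus strand: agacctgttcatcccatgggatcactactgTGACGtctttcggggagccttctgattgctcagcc
Cck, chr9:121495707-121495771, minus strand: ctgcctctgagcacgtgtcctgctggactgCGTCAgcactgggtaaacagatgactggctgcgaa
The Sst window lies upstream of the RefSeq start but inside the first exon of the gene's GENCODE M21 transcript. The matches begin 48, 79 and 47 bases before the RefSeq start of Sst, Vip and Cck in that order. The full CRE was found in 1 of the 9 members that have an entry in the RefSeq table (Crh has none), against 1.77% of all 27025 genes. A gene was counted once if any of its promoters held the letters. The short form was found in 4 of the 9, namely Sst, Vip, Cck and Gad2, against 19.8% of all genes. The AP-1 letters TGAGTCA were found in 0 of the 9, against 5.16%. The core of the antioxidant response element bound by NRF2, TGACNNNGC, was found in Gad2 only, against 11.5%. Its letters can overlap those of AP-1. These are matches of letters, not measured binding sites.

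All 10 genes were expressed in every library of both tables. Since TPM is scaled by length, the levels of different genes may be set side by side. In 6-month wild-type brain Cck was the highest at 248 ± 24.7 TPM (SD, n = 4), followed by Sst at 196 ± 18.2 TPM. Gad1 (115 ± 14.6 TPM) and Npy (112 ± 16.8 TPM) overlapped and changed places between libraries, with Gad1 above Npy in 10 of 28. That order rests on the gene row of Gad1; with its transcript rows added, described further on, wild-type Gad1 was 168 ± 5.06 TPM and lay above every wild-type Npy value. Gad2 followed at 60.1 ± 5.75 TPM, and Slc32a1 (49.5 ± 2.80 TPM) overlapped Pvalb (47.5 ± 4.82 TPM). Vip, Tac2 and Crh were the low members, at 13.2 ± 1.09, 7.76 ± 1.64 and 2.91 ± 0.720 TPM in wild-type brain. Over all 28 libraries Cck ranked 174th and Crh 12965th of 16776 genes by mean TPM.

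The order differed in the table of the APP/TAU study, whose mice were older and which was normalised separately, so levels are only set side by side. There Pvalb stood first in 11-month wild-type brain at 169 ± 32.5 TPM (n = 5), overlapping Cck at 141 ± 21.4 TPM and Sst at 118 ± 16.4 TPM. The ratio of Pvalb to Sst within a library averaged 1.59 in APP/TAU 2P-Im, 1.32 in APP/TAU vehicle and 1.46 in wild type. In the AppNLGF table it averaged 0.232 in 2P-Im, 0.237 in vehicle and 0.242 in wild type. The summed TPM of 12 cerebellar genes (Purkinje and granule cell markers such as Pcp2 and Gabra6) averaged 796 in APP/TAU 2P-Im, 880 in APP/TAU vehicle and 769 in 11-month wild type. In the AppNLGF table the same sum averaged 152 in 2P-Im, 161 in vehicle and 171 in wild type. The sum of 10 striatal genes ran the other way, at 94.6, 117 and 113 TPM in those 3 groups of the APP/TAU table, against 501, 501 and 569 TPM in those of the AppNLGF table. The tables thus also differ in region markers, and the part of this in the order of the members was not tested. The ratio of the Gad1 to the Gad2 gene row within a library overlapped between all groups: it was 1.97 ± 0.243, 1.86 ± 0.213 and 1.90 ± 0.127 in AppNLGF 2P-Im, AppNLGF vehicle and wild type, and 2.05 ± 0.210, 2.04 ± 0.142 and 1.93 ± 0.442 in APP/TAU 2P-Im, APP/TAU vehicle and wild type.

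**Figure D1:**
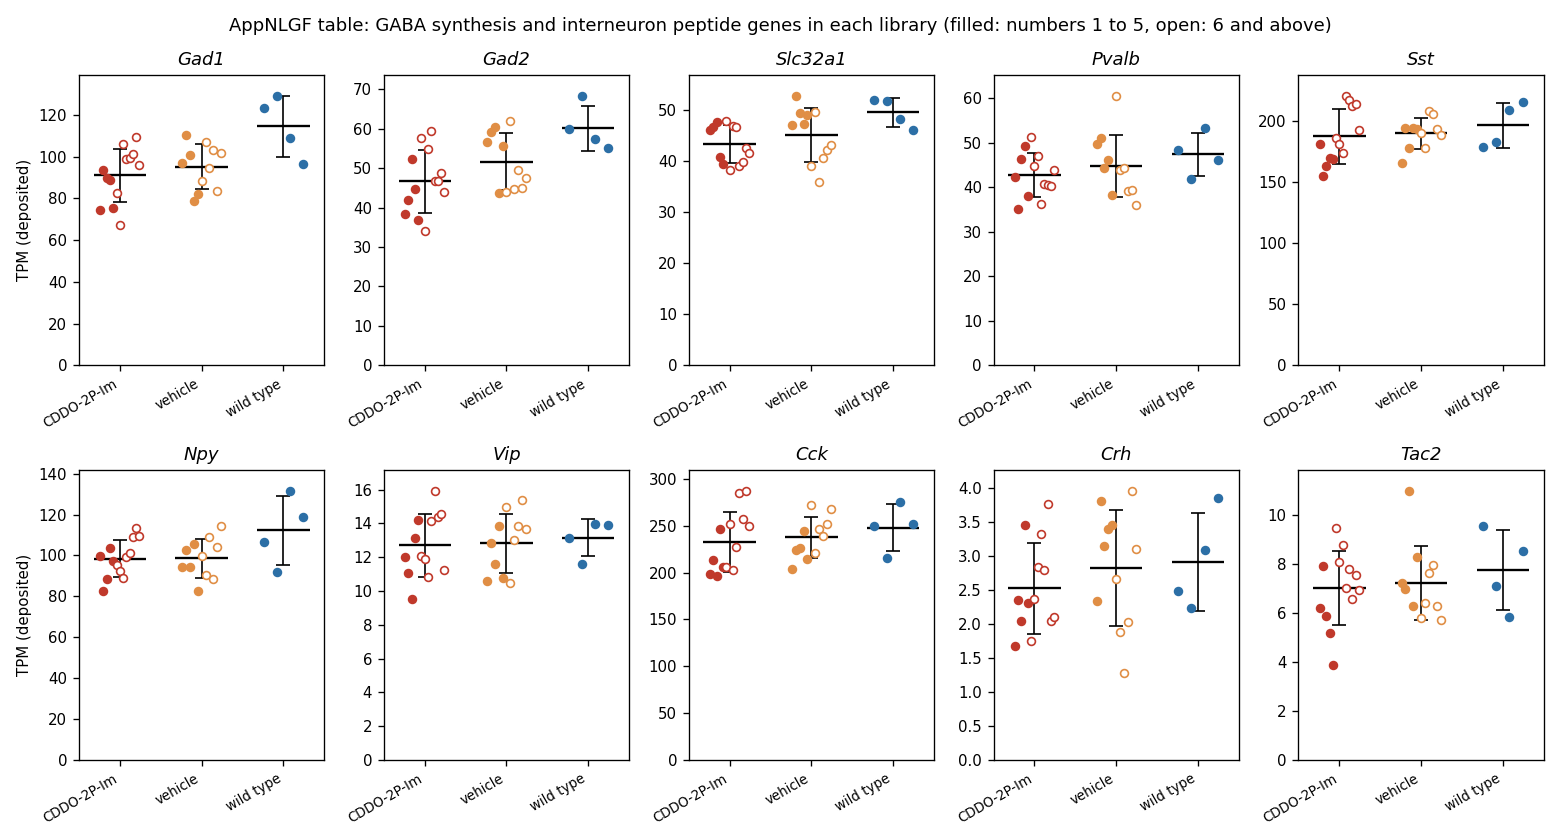
TPM as deposited (y axis, linear, one panel per gene) of the 10 genes in each library of the AppNLGF table, with AppNLGF 2P-Im (n = 13), AppNLGF vehicle (n = 11) and wild type (n = 4) from left to right; points are libraries and bars are the mean ± SD. The groups overlap in every panel, and the clearest offset is that of Gad2, where 11 of 13 2P-Im libraries lie below every wild-type library.

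No member passed an adjusted p of 0.05 in any of the 6 comparisons. The test was limma on log2(TPM + 1) with Benjamini-Hochberg adjustment over all genes tested, and it was run on the TPM as deposited and again after median-ratio scaling, which removes a factor common to the genes of a library. In AppNLGF 2P-Im against AppNLGF vehicle, 0 of 10 members passed, against 0.0536% of all genes as deposited and 0.286% after scaling. In AppNLGF vehicle against wild type, 0 of 10 passed, against 0.28% and 0.691% of all genes. In AppNLGF 2P-Im against wild type, 0 of 10 passed, against 0.262% and 0.715%. With so few genes called in all, a count of 0 among 10 lies at the background. Before adjustment, 0 of 10 members had p below 0.05 in 2P-Im against vehicle under either scaling, against 6.18% of all genes as deposited and 12.5% after scaling. In vehicle against wild type 2 of 10 had (Gad1 and Npy), against 4.16%, and 1 of 10 after scaling (Gad1), against 7.05%. In 2P-Im against wild type 4 of 10 had, against 7.73%, and 2 of 10 after scaling (Gad1 and Gad2), against 11.6%. As deposited, 0 of 10 members had groups that did not overlap in any of these comparisons. Among all genes that share was 0.00596% for 2P-Im against vehicle, 0.662% for vehicle against wild type and 0.256% for 2P-Im against wild type.

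The GABA genes of 2P-Im-treated AppNLGF brain overlapped the vehicle libraries. For Gad1 3 of 13 and for Gad2 4 of 13 2P-Im libraries lay below every vehicle library, and for Slc32a1 0 of 13. Gad1 ran from 67.4 over a median of 93.6 to 109 TPM in 2P-Im, and from 78.6 over 97.0 to 110.4 TPM in vehicle. The fitted log2 fold change was -0.07 ± 0.08 (SE), with a 95% interval of -0.22 to 0.09. Gad2 ran from 34.1 over 46.7 to 59.4 TPM in 2P-Im, and from 43.6 over 49.5 to 61.8 TPM in vehicle. Its ranges overlapped, and its log2 fold change of -0.15 ± 0.08 was the lowest of the 10 members (p = 0.0875, limma adjusted p = 0.778). Slc32a1, which encodes the vesicular GABA transporter VGAT, ran from 38.3 over 42.5 to 47.9 TPM in 2P-Im, and from 35.9 over 47.1 to 52.7 TPM in vehicle. Its difference of -0.05 ± 0.06 on the log2 scale was smaller than the spread within either group.

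Pvalb and the peptides overlapped between the groups as well. For Sst 4 of 13 2P-Im libraries lay above and 2 below every vehicle library, and for Cck 2 above and 3 below. Pvalb, the marker of fast-spiking basket cells, ran from 35.2 over 42.4 to 51.3 TPM in 2P-Im and from 36.0 over 44.3 to 60.5 TPM in vehicle. Sst, which marks dendrite-targeting interneurons, averaged 187 ± 22.2 TPM in 2P-Im and 190 ± 12.4 TPM in vehicle. Npy, a peptide of the same and of neurogliaform cells, averaged 98.4 ± 9.02 TPM in 2P-Im and 98.7 ± 9.57 TPM in vehicle. In each of these 3 genes the groups differed by less than 1 SD. Vip, which marks interneurons that inhibit other interneurons, averaged 12.7 ± 1.84 TPM in 2P-Im and 12.8 ± 1.74 TPM in vehicle. Cck, shared by basket cells and projection neurons, averaged 233 ± 31.9 TPM in 2P-Im and 237 ± 21.7 TPM in vehicle. The stress peptide Crh averaged 2.52 ± 0.663 TPM in 2P-Im and 2.82 ± 0.854 TPM in vehicle. Tac2, which encodes neurokinin B, averaged 7.02 ± 1.51 TPM in 2P-Im and 7.23 ± 1.51 TPM in vehicle.

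All 10 fold changes of 2P-Im against vehicle lay below 0 as deposited (median -0.05, against -0.04 for all genes), but 4 lay above 0 and 6 below after median-ratio scaling (median -0.01). The direction of this small offset therefore depended on the scaling. The 95% intervals of the 10 members together ran from -0.35 to 0.18 as deposited and from -0.33 to 0.22 after scaling, so changes inside those bounds could not be told from none. For Sst after scaling the interval was as narrow as -0.08 to 0.11. In the same comparison Arc, a gene switched on by neuronal activity, rose to 83.2 TPM in 2P-Im against 36.1 TPM in vehicle (log2 fold change 1.20 ± 0.17, limma adjusted p = 0.00182).

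Against wild type, the 2 decarboxylases had the lowest fold changes of the members in AppNLGF 2P-Im, without passing the threshold. Gad1 ran from 67.4 to 109 TPM in 2P-Im, against 124, 129, 109 and 96.5 TPM in wild type, so that 8 of 13 2P-Im libraries lay below every wild-type library. The means were 91.0 ± 12.8 TPM in 2P-Im and 115 ± 14.6 TPM in wild type, with a log2 fold change of -0.33 ± 0.11 (95% interval -0.55 to -0.12, p = 0.00382, limma adjusted p = 0.409). Gad2 ran from 34.1 to 59.4 TPM in 2P-Im, against 59.9, 68.2, 57.2 and 55.0 TPM in wild type, and 11 of 13 2P-Im libraries lay below all of these. The means were 46.6 ± 7.88 TPM in 2P-Im and 60.1 ± 5.75 TPM in wild type, with a log2 fold change of -0.37 ± 0.12 (-0.62 to -0.13, p = 0.00375, adjusted p = 0.406). The groups of both genes overlapped. After median-ratio scaling the log2 fold changes were -0.26 ± 0.09 for Gad1 (limma adjusted p = 0.198) and -0.30 ± 0.11 for Gad2 (adjusted p = 0.263).

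Slc32a1 ran from 38.3 to 47.9 TPM in 2P-Im, against 51.9, 51.8, 48.3 and 46.2 TPM in wild type, and 8 of 13 2P-Im libraries lay below all 4. Its log2 fold change in 2P-Im was -0.19 ± 0.08 (limma adjusted p = 0.592) as deposited and -0.12 ± 0.12 after scaling. Npy ran from 82.6 to 113 TPM in 2P-Im, against 107, 92.1, 131 and 119 TPM in wild type, and its log2 fold change in 2P-Im was -0.18 ± 0.08 (adjusted p = 0.644) and -0.11 ± 0.09 after scaling. The Npy groups overlapped. The other 6 members had log2 fold changes between -0.16 and -0.06 as deposited. All 10 fold changes were below 0 as deposited (median -0.15, all genes -0.06), and 8 of 10 after scaling (median -0.09).

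AppNLGF vehicle against wild type, the comparison of genotypes under vehicle, gave smaller differences in Gad1, Gad2 and Slc32a1. For Npy the log2 fold change was -0.18 in both comparisons as deposited. After scaling it was -0.15 ± 0.09 in vehicle and -0.11 ± 0.09 in 2P-Im, each against wild type. Gad1 averaged 95.2 ± 10.7 TPM in vehicle and 115 ± 14.6 TPM in wild type, with 5 of 11 vehicle libraries below every wild-type library (log2 fold change -0.26 ± 0.11, p = 0.0213, limma adjusted p = 0.947). Gad2 averaged 51.6 ± 7.20 TPM in vehicle and 60.1 ± 5.75 TPM in wild type (-0.22 ± 0.12, adjusted p = 1). Slc32a1 averaged 45.1 ± 5.23 TPM in vehicle and 49.5 ± 2.80 TPM in wild type. All 3 GABA genes overlapped between the groups. Npy averaged 98.7 ± 9.57 TPM in vehicle and 112 ± 16.8 TPM in wild type (-0.18 ± 0.09, p = 0.0474, adjusted p = 1). Pvalb, Sst, Vip, Cck, Crh and Tac2 had log2 fold changes between -0.09 and -0.04, each smaller than its SE. The 2 comparisons with wild type share its 4 libraries, so their like signs are not separate observations. Fos, an activity gene, fell to 6.01 TPM in vehicle against 22.0 TPM in wild type in this comparison (log2 fold change -1.71 ± 0.29, adjusted p = 0.00189).

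**Figure D2:**
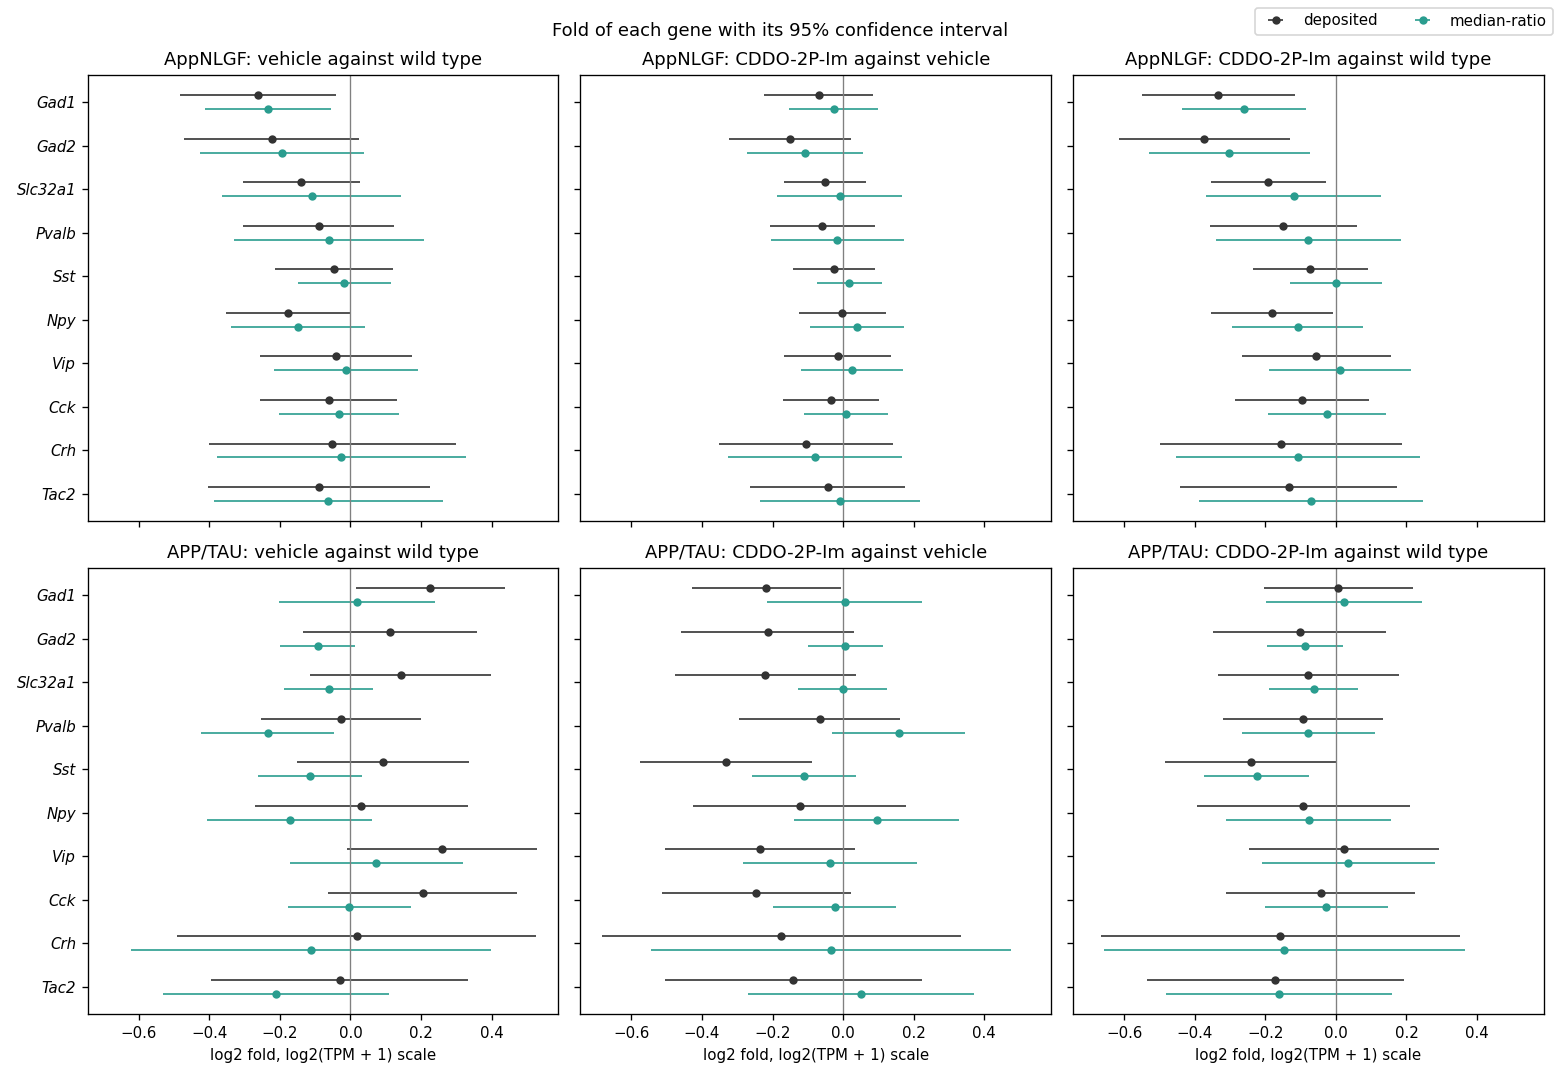
Log2 fold change of each gene with its 95% interval (x axis, log2(TPM + 1) scale; genes down the page) in the 6 comparisons, as deposited and after median-ratio scaling. In the comparison of AppNLGF 2P-Im with wild type Gad1 and Gad2 lie farthest to the left, and in the APP/TAU comparisons most members shift together between the scalings.

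The 3 GABA genes all lie on chromosome 2 (Gad1 at chr2:70553072-70602014, Gad2 at chr2:22622205-22693874 and Slc32a1 at chr2:158610767-158615748, all plus strand, GRCm38, GENCODE M21), far apart from one another. Of the others, Pvalb lies at chr15:78191114-78206400 (minus), Sst at chr16:23889573-23890958 (minus), Npy at chr6:49822710-49829507 (plus), Vip at chr10:5639218-5647617 (plus), Cck at chr9:121489824-121495694 (minus), Crh at chr3:19693401-19695396 (minus) and Tac2 at chr10:127724478-127731768 (plus). Slc32a1 shares exon bases with the antisense gene Gm14205. The AppNLGF table lists 64708 transcript rows beside its gene rows, and these took part of the signal of 5 members. Gad1 had 5 such rows, Cck 3, Tac2 2, Gad2 1 and Vip 1. Gad1 was the member most affected: its transcript rows held 31.1 ± 7.42% of its summed TPM in 2P-Im, 34.1 ± 7.69% in vehicle and 32.0 ± 7.40% in wild type. The largest was Gad1-206, annotated as a processed transcript, at 25.8 ± 6.71, 27.0 ± 6.23 and 26.5 ± 3.75 TPM in 2P-Im, vehicle and wild type. Gad1-204, annotated as protein-coding, was listed at 0 in 10 of 13, 6 of 11 and 2 of 4 libraries of those groups. Gene rows held 88.5 to 91.4% of the TPM in the AppNLGF-table libraries and 84.9 to 90.8% in the APP/TAU-table libraries. How much of the members' signal lies outside gene rows in the APP/TAU table was not examined.

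With the transcript rows added to the gene row, Gad1 in 2P-Im no longer overlapped wild type. The sum ran from 102 over 137 to 148 TPM in 2P-Im and from 124 over 142 to 179 TPM in vehicle, and was 166, 176, 167 and 165 TPM in wild type. Every 2P-Im library lay below every wild-type library, while the vehicle range enclosed the wild-type values. Of all genes in the table with transcript rows added, 0.267% had 2P-Im and wild-type groups that did not overlap. The log2 fold change of 2P-Im against wild type was -0.35 ± 0.09 (p = 3.8e-04), and limma's adjusted p of 0.122 did not pass the threshold. After scaling it was -0.30 ± 0.09 (adjusted p = 0.137). For vehicle against wild type the sum gave -0.22 ± 0.09 (limma adjusted p = 1) as deposited and -0.19 ± 0.09 (adjusted p = 0.701) after scaling, against -0.26 and -0.23 for the gene row alone. Against vehicle the summed Gad1 had a log2 fold change of -0.14 ± 0.06 (adjusted p = 0.922). This sum was chosen after the values had been seen.

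**Figure D3:**
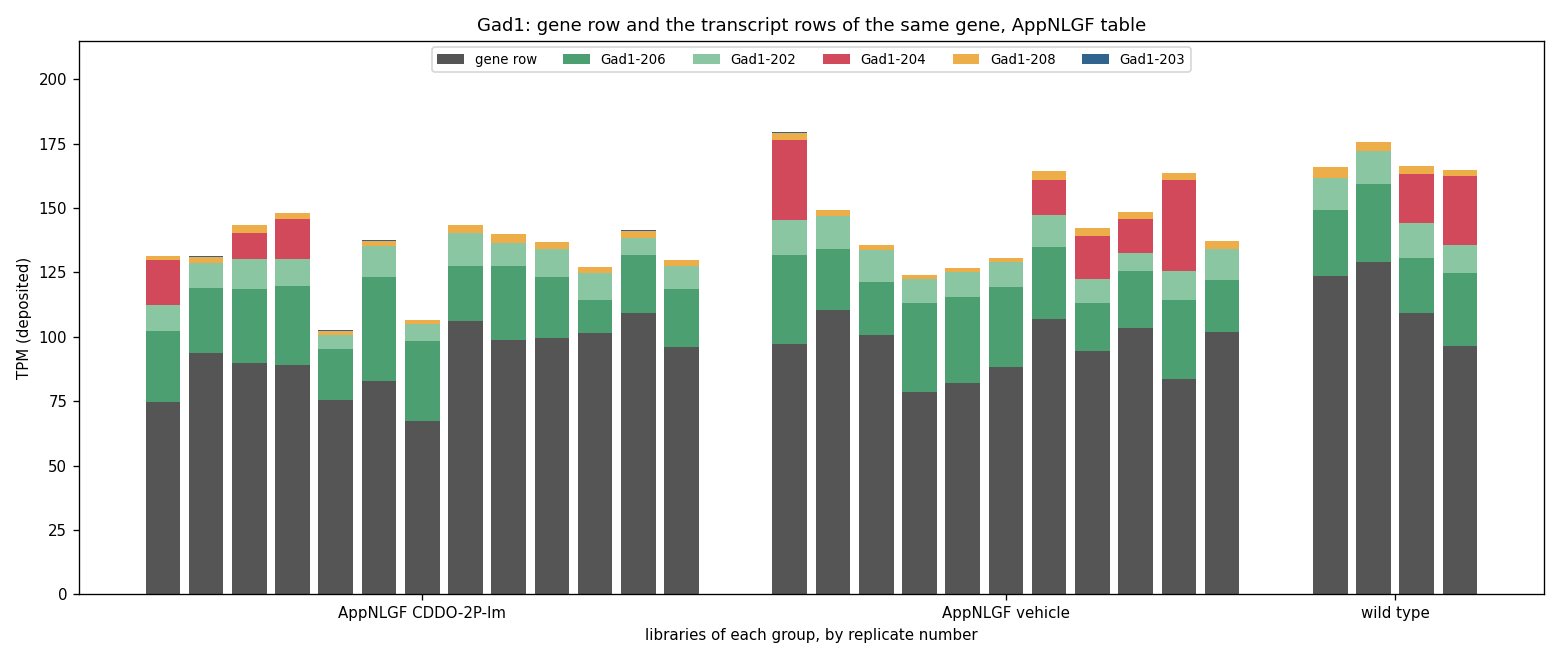
TPM as deposited (y axis, linear from 0) of the Gad1 gene row and of its 5 transcript rows, stacked, with 1 bar per library of the AppNLGF table; 2P-Im (n = 13), vehicle (n = 11) and wild type (n = 4) run from left to right. The full bars of all 2P-Im libraries (at most 148 TPM) are lower than those of all wild-type libraries (at least 165 TPM), which does not hold for the gene row alone.

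The replicate numbers in the labels moved with several members. All 4 wild-type libraries carry numbers of 5 or lower, while 8 of 13 2P-Im and 6 of 11 vehicle libraries carry numbers of 6 or higher; the labels do not say what a number stands for. After scaling, Slc32a1 in 2P-Im averaged 40.5 ± 4.15 scaled TPM at the higher numbers and 50.9 ± 6.32 at the lower ones. In vehicle it averaged 38.9 ± 4.18 at the higher numbers (33.4 to 45.9) and 52.1 ± 1.16 at the lower ones (51.2 to 54.1). The share of all genes that separate by number in this way was not computed. Within the lower numbers alone, Slc32a1 averaged above the 48.0 ± 3.14 of wild type in both AppNLGF groups. Gad2 within the lower numbers averaged 49.0 in 2P-Im, 58.4 in vehicle and 58.2 in wild type on the same scale. Gad1 averaged 97.1, 99.4 and 111 in those groups. As deposited, Gad1 within the lower numbers was 84.5 ± 8.79 TPM in 2P-Im (n = 5), 93.7 ± 13.3 TPM in vehicle (n = 5) and 115 ± 14.6 TPM in wild type (n = 4). Within the lower numbers the means of Gad1 and Gad2 were lower in 2P-Im than in wild type, and that of Slc32a1 was higher after scaling. No test was run within the lower numbers, and the part of the numbers in these differences was not tested by this split. As deposited, Slc32a1 in 2P-Im averaged 42.8 ± 3.82 TPM at the higher and 44.1 ± 3.69 TPM at the lower numbers. In vehicle it averaged 41.7 ± 4.60 and 49.1 ± 2.23 TPM, and those ranges (35.9 to 49.6 and 47.1 to 52.7) overlapped. Sst in 2P-Im averaged 200 ± 18.4 TPM at the higher and 168 ± 9.37 TPM at the lower numbers as deposited, and 188 and 193 after scaling. Cck in 2P-Im averaged 246 ± 31.8 and 212 ± 20.3 TPM as deposited, and 232 and 243 after scaling. With a term for these numbers on the deposited TPM, Gad1 (log2 fold change -0.40, limma adjusted p = 0.0129), Gad2 (-0.38, adjusted p = 0.03) and Npy (-0.23, adjusted p = 0.0447) passed the threshold for 2P-Im against wild type, in a fit that called 30.7% of all genes and put the median of all genes at -0.19. With the term and scaling together 0 of 10 passed, and the log2 fold change was -0.18 ± 0.09 for Gad1, -0.17 ± 0.11 for Gad2 and 0.11 ± 0.08 for Slc32a1.

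Other markers stood beside these differences. Xist, the RNA that coats the inactive X chromosome, was at least 10 TPM in 7 of 13 2P-Im, 5 of 11 vehicle and 0 of 4 wild-type libraries. Among libraries below that limit the log2 fold change of 2P-Im against wild type was -0.26 ± 0.11 for Gad1 and -0.33 ± 0.12 for Gad2 as deposited (limma adjusted p = 1 for both). The sum of 14 hypothalamic and thalamic genes ran from 48.4 to 172 TPM in 2P-Im, from 47.3 to 234 TPM in vehicle and from 70.4 to 170 TPM in wild type, and all 12 of its tested genes had a fold change below 0 in 2P-Im against wild type. Their part in the result was not tested.

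**Figure D4:**
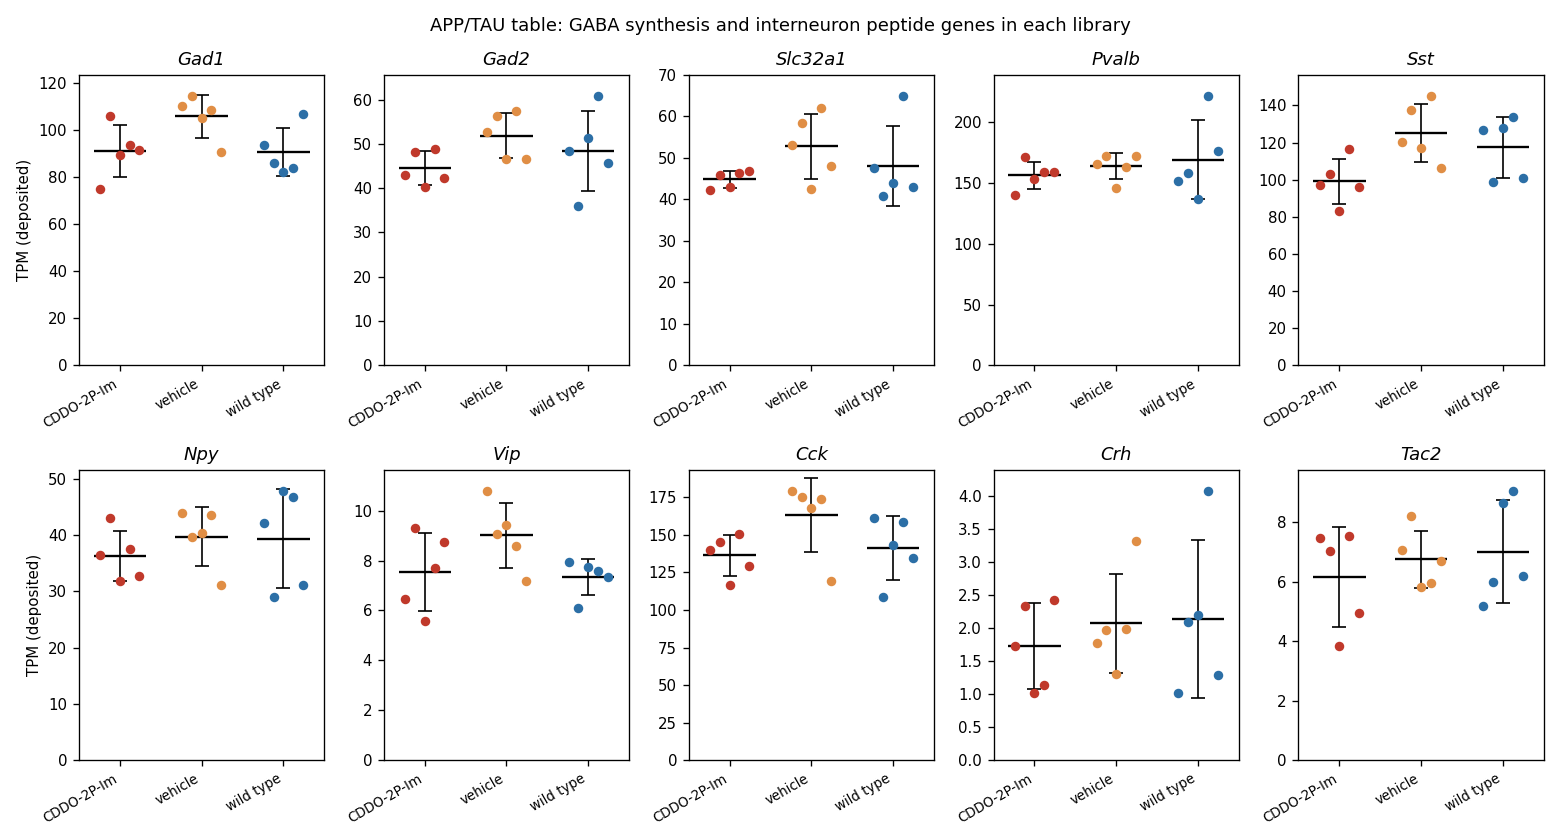
TPM as deposited (y axis, linear, one panel per gene) of the 10 genes in each library of the APP/TAU table, with APP/TAU 2P-Im, APP/TAU vehicle and wild type (n = 5 each) from left to right; points are libraries and bars are the mean ± SD. The groups overlap in every panel, and in Sst 4 of 5 2P-Im libraries lie below every vehicle library.

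In the APP/TAU table most differences depended on the scaling. A single very abundant RNA with no symbol took 29.5 ± 1.54% of the TPM in APP/TAU 2P-Im, 22.0 ± 6.59% in APP/TAU vehicle and 30.1 ± 3.72% in wild type. The median fold change of all genes was -0.19 for 2P-Im against vehicle and 0.18 for vehicle against wild type as deposited, and near 0 after scaling. In APP/TAU 2P-Im against vehicle 0 of 10 members passed, against 0% of all genes as deposited and 0.0114% after scaling. In APP/TAU vehicle against wild type 0 of 10 passed, against 0.0227% and 0.0284%. In APP/TAU 2P-Im against wild type 0 of 10 passed, against 0.0227% and 0.0284%. Before adjustment, 2 of 10 members (Gad1 and Sst) had p below 0.05 in 2P-Im against vehicle, against 26.8% of all genes, and 0 of 10 after scaling, against 8.84%. In vehicle against wild type 1 of 10 had (Gad1), against 23.8%, and 1 of 10 after scaling (Pvalb), against 14.2%. In 2P-Im against wild type 0 of 10 had, against 2.16%, and 1 of 10 after scaling (Sst), against 7.83%. As deposited, 0 of 10 members had groups that did not overlap, while among all genes that share was 3.68% for 2P-Im against vehicle, 2.04% for vehicle against wild type and 0.426% for 2P-Im against wild type. The comparisons of 2P-Im with vehicle and of vehicle with wild type share the vehicle libraries, so that a factor of those libraries enters them with opposite signs.

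Sst had the lowest log2 fold change of APP/TAU 2P-Im against vehicle as deposited. It was 97.0, 103, 83.2, 116 and 96.1 TPM in 2P-Im, against 120.2, 138, 117, 145 and 106 TPM in vehicle. Only 1 of the 5 2P-Im libraries reached into the vehicle range. The log2 fold change was -0.33 ± 0.11 (95% interval -0.58 to -0.09, p = 0.0105, limma adjusted p = 0.167). After scaling the means were 104 in 2P-Im and 113 in vehicle, and the log2 fold change was -0.11 ± 0.07 (adjusted p = 0.673). Wild-type Sst was 127, 98.7, 128, 134 and 101 TPM. On the scaled values 3 of 5 2P-Im libraries lay below every wild-type library, with a log2 fold change of -0.22 ± 0.07 (p = 0.00552, adjusted p = 0.464).

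Gad1 was 74.8, 106, 89.4, 93.5 and 91.3 TPM in APP/TAU 2P-Im, 110.2, 114, 105, 108 and 90.6 TPM in APP/TAU vehicle, and 93.6, 85.8, 82.1, 83.8 and 107 TPM in wild type. The vehicle libraries were the highest as a group and overlapped both others. The log2 fold changes were -0.22 ± 0.10 for 2P-Im against vehicle (limma adjusted p = 0.180) and 0.23 ± 0.10 for vehicle against wild type (adjusted p = 0.192), and after scaling 0.00 ± 0.10 and 0.02 ± 0.10. Both deposited offsets were close to the shift of all genes. Gad2 averaged 44.5 ± 3.80 TPM in 2P-Im, 51.9 ± 5.13 TPM in vehicle and 48.4 ± 8.97 TPM in wild type. Slc32a1 averaged 44.8 ± 2.13 TPM in 2P-Im, 52.9 ± 7.83 TPM in vehicle and 48.0 ± 9.72 TPM in wild type. After scaling, 2P-Im against vehicle gave 0.01 ± 0.05 for Gad2, with an interval of -0.10 to 0.11, and 0.00 ± 0.06 for Slc32a1, with an interval of -0.13 to 0.13, the narrowest bounds of any members in this table.

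Pvalb shifted between the scalings, as most members did in this table. It was 140, 171, 153, 159 and 159 TPM in APP/TAU 2P-Im, 165, 172, 146, 164 and 172 TPM in vehicle, and 152, 158, 137, 221 and 176 TPM in wild type. After scaling the means were 165 in 2P-Im, 149 in vehicle and 175 in wild type, and 3 of 5 vehicle libraries lay below every wild-type library. The log2 fold change of vehicle against wild type was -0.03 ± 0.11 as deposited and -0.24 ± 0.09 after scaling (p = 0.0179, limma adjusted p = 0.261). For 2P-Im against vehicle it was -0.07 ± 0.11 as deposited and 0.16 ± 0.09 after scaling (adjusted p = 0.627). The sign for 2P-Im against vehicle thus turned with the scaling, as it also did for Gad1, Gad2, Npy and Tac2.

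The remaining peptides overlapped in all 3 groups. Vip was 6.45, 9.31, 5.56, 7.71 and 8.74 TPM in APP/TAU 2P-Im, 10.8, 9.08, 9.41, 8.59 and 7.18 TPM in vehicle, and 7.93, 6.10, 7.73, 7.58 and 7.33 TPM in wild type. Cck was 139.8, 146, 117, 151 and 129 TPM in 2P-Im, 179, 175, 168, 174 and 119 TPM in vehicle, and 162, 109, 143, 159 and 134 TPM in wild type. The fifth vehicle library was low in Cck and inside the range of the other groups. Npy averaged 36.3 ± 4.46 TPM in 2P-Im, 39.7 ± 5.19 TPM in vehicle and 39.4 ± 8.78 TPM in wild type. Crh averaged 1.73 ± 0.654, 2.07 ± 0.751 and 2.13 ± 1.20 TPM, and Tac2 6.15 ± 1.67, 6.75 ± 0.960 and 7.01 ± 1.72 TPM, in 2P-Im, vehicle and wild type. Crh was the least precisely measured member, with a 95% interval of -0.68 to 0.33 for 2P-Im against vehicle. Over the 10 members the fold changes of 2P-Im against vehicle were all below 0 as deposited (median -0.22), and 5 were above 0 and 5 below after scaling (median 0.00). Those of vehicle against wild type were above 0 in 8 of 10 as deposited (median 0.10) and in 2 of 10 after scaling (median -0.10).

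Although the groups differed little, some members varied together from library to library. Relations were computed over the 28 AppNLGF-table libraries on scaled log2(TPM + 1) with each group's mean removed, for all 45 pairs, and each p comes from 100000 permutations within groups. Of the 45 pairs, 11 had an adjusted p below 0.05 for Pearson's r. Of these, 8 fell into 2 sets. Of the 3 GABA pairs 2 passed: Gad2 with Slc32a1 had r = 0.72 and rho = 0.74 (adjusted permutation p = 0.0024 and 0.00157), and Gad1 with Gad2 had r = 0.58 and rho = 0.57 (adjusted permutation p = 0.0113 and 0.0236). Leaving out the 2 farthest libraries gave r = 0.69 and r = 0.55. Within the lower and the higher replicate numbers, Gad2 with Slc32a1 had r = 0.40 and 0.70, and Gad1 with Gad2 had r = 0.70 and 0.35. Gad1 with Slc32a1 did not pass, at r = 0.45 and rho = 0.42 (adjusted permutation p = 0.0656 and 0.0996), with r = 0.30 without the 2 farthest libraries and r = 0.50 and -0.01 within the lower and higher numbers.

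The peptides Sst, Npy, Vip and Cck formed the other set, with all 6 pairs past the threshold for Pearson's r. By rho, Sst with Npy (rho = 0.49, adjusted permutation p = 0.0604) and Sst with Cck (rho = 0.41, adjusted permutation p = 0.117) did not pass. Vip with Cck had r = 0.69 and rho = 0.74 (adjusted permutation p = 0.0024 and 9e-04), and r = 0.74 and 0.67 within the lower and higher numbers. Npy with Cck had r = 0.68 and rho = 0.60 (adjusted permutation p = 0.0024 and 0.0167), and r = 0.72 and 0.70 within them. Sst with Vip had r = 0.62 and rho = 0.58 (adjusted permutation p = 0.00592 and 0.0167), and r = 0.64 and 0.69 within them. Gad2 ran against 2 of these peptides: with Cck it had r = -0.57 and rho = -0.50 (adjusted permutation p = 0.00592 and 0.0417), and r = -0.78 and -0.83 within the lower and higher numbers. Gad2 with Vip had r = -0.51 and rho = -0.49 (adjusted permutation p = 0.0389 and 0.0604). Slc32a1 had r = 0.18, 0.25, -0.04 and -0.06 with Sst, Npy, Vip and Cck in that order, none past the threshold. Slc32a1 with Pvalb had r = 0.51 and rho = 0.52 over all libraries (adjusted permutation p = 0.0464 and 0.0589), but r = -0.05 and 0.29 within the numbers, so it did not hold within them. On the deposited TPM 10 pairs passed. The relations of Gad2 with Vip (r = -0.38) and with Cck (r = -0.35) were then not among them. Slc32a1, by contrast, then ran against Cck (r = -0.62, rho = -0.61, adjusted permutation p = 0.00252 and 0.0051). It also ran against Vip (r = -0.58, rho = -0.59, adjusted permutation p = 0.0122 and 0.0131). Which GABA gene ran against these peptides past the threshold thus depended on the scaling.

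**Figure D5:**
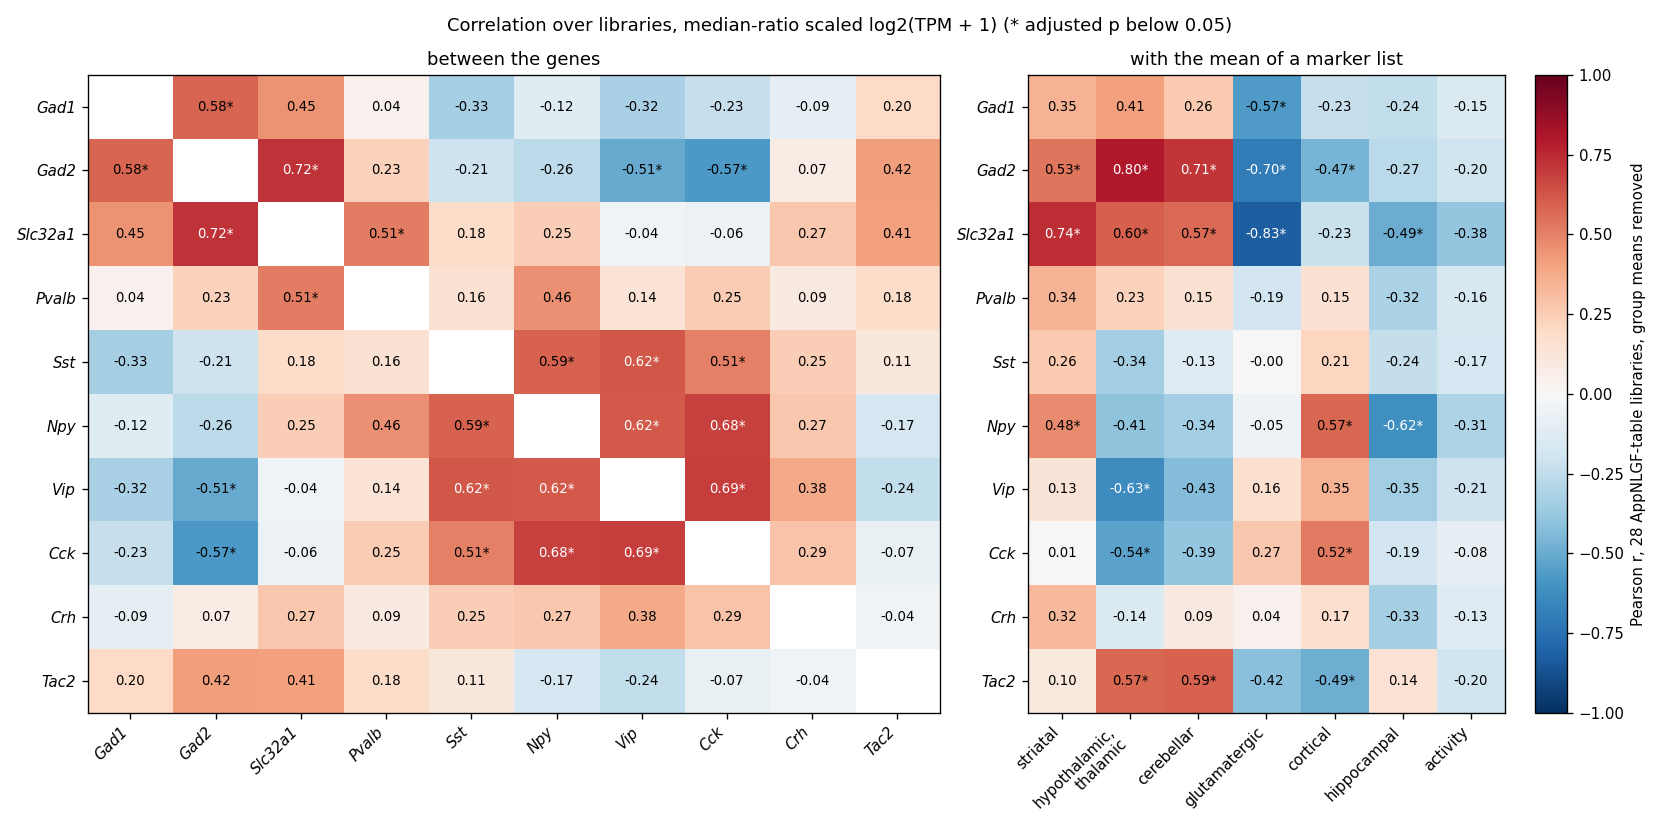
Pearson's r (colour scale from -1 to 1, value printed) over the 28 AppNLGF-table libraries, on median-ratio scaled log2(TPM + 1) with group means removed, between each pair of the 10 genes (left) and between each gene and the mean log2 level of 7 marker lists (right); an asterisk marks an adjusted permutation p below 0.05. The GABA genes and the peptides Sst, Npy, Vip and Cck form 2 positive blocks, with a negative value between Gad2 and Cck (r = -0.57), and Gad2 and Slc32a1 run against the glutamatergic genes.

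The 15 APP/TAU-table libraries gave 0 of 45 pairs after scaling. The peptide pairs were nonetheless positive there, with r = 0.70 for Npy with Cck (rho = 0.79, adjusted permutation p = 0.251 for r), r = 0.60 for Vip with Cck (rho = 0.60, adjusted permutation p = 0.251) and r = 0.31 for Sst with Vip (rho = 0.34, adjusted permutation p = 0.56). Of the GABA pairs, Gad2 with Slc32a1 had r = 0.13 (rho = 0.12, adjusted permutation p = 0.905), Gad1 with Gad2 had r = -0.42 (rho = -0.35, adjusted permutation p = 0.56) and Gad1 with Slc32a1 had r = -0.49 (rho = -0.36, adjusted permutation p = 0.349). Gad2 did not run against the peptides there. It had r = 0.31 with Cck (rho = 0.26, adjusted permutation p = 0.57) and r = 0.20 with Vip (rho = 0.15, adjusted permutation p = 0.623). As deposited, 10 pairs passed and 42 of 45 had a positive r. Among them were Gad2 with Slc32a1 at r = 0.82 (adjusted permutation p = 0.0139) and Gad2 with Cck at r = 0.77 (adjusted permutation p = 0.0072).

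The members also varied with the region markers of the libraries. Over 70 relations of a member with the mean log2 level of 1 of 7 lists of region, glutamatergic or activity genes, 20 passed an adjusted p of 0.05 in the AppNLGF table. Slc32a1 ran against 9 glutamatergic neuron genes such as Slc17a7 and Camk2a (r = -0.83, rho = -0.83, adjusted permutation p = 0.00035 for both), also within the lower (r = -0.76) and higher (r = -0.82) numbers. Slc32a1 ran with the striatal genes (r = 0.74, rho = 0.69, adjusted permutation p = 0.00084 and 0.00303), more weakly within the numbers (r = 0.29 and 0.57). Gad2 ran with the hypothalamic and thalamic genes (r = 0.80, rho = 0.77, adjusted permutation p = 0.00035 for both), and equally within the lower and higher numbers (r = 0.78 in each). Vip ran against that list (r = -0.63, rho = -0.61, adjusted permutation p = 0.0049 and 0.00812; r = -0.67 and -0.81 within the numbers). Npy ran with the cortical projection neuron genes (r = 0.57, rho = 0.63, adjusted permutation p = 0.018 and 0.00747) and against the hippocampal ones (r = -0.62, rho = -0.62, adjusted permutation p = 0.009 and 0.00747). Some genes of the region lists are also listed as interneuron identity genes, namely Lamp5 (cortical), Prox1 (hippocampal) and Calb2 (hypothalamic and thalamic). Within the lower and higher numbers, Npy had r = 0.60 and 0.70 with the cortical genes and r = -0.69 and -0.21 with the hippocampal ones. Without the 2 farthest libraries these 6 values of r were -0.81, 0.71, 0.76, -0.66, 0.52 and -0.59 in the order given. Over the APP/TAU-table libraries 1 of 70 passed, Cck with the glutamatergic genes (r = 0.94, rho = 0.91, adjusted permutation p = 0.0042 and 0.0077; r = 0.90 without the 2 farthest libraries).

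Other genes of the interneuron pathways were read from 6 further lists, and 0 genes of these lists passed in any of the 6 comparisons under either scaling. Among all genes between 0% and 0.715% passed in those comparisons, so a count of 0 lies near the background. The lists hold 10 genes of GABA uptake and supply, 10 of the inhibitory synapse, 26 of interneuron identity, 15 receptors of the peptides, 12 of peptide processing and 8 of the perineuronal net that wraps parvalbumin cells. In AppNLGF 2P-Im against vehicle, all 10 GABA-supply genes had a fold change below 0 (median -0.10, all genes -0.04), and after scaling 8 of 10 (median -0.07). The smallest p there belonged to Gls2, a glutaminase, at 3.13 ± 0.743 TPM in 2P-Im and 4.41 ± 1.06 TPM in vehicle (log2 fold change -0.39 ± 0.10, limma adjusted p = 0.339), and to Glul, the astrocytic glutamine synthetase, at 570.4 ± 84.9 and 653 ± 38.1 TPM in those groups (-0.21 ± 0.07, adjusted p = 0.583). Of the 25 tested identity genes, 24 had a fold change below 0 (median -0.08), and 24 after scaling (median -0.05).

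In AppNLGF 2P-Im against wild type, all 12 peptide-processing genes had a fold change below 0 (median -0.11, all genes -0.06), and after scaling 8 of 12 (median -0.04). Chga, a dense-core vesicle protein, averaged 39.96 ± 4.19 TPM in 2P-Im and 48.0 ± 2.53 TPM in wild type (log2 fold change -0.27 ± 0.07, limma adjusted p = 0.161). Adarb2, a marker of Vip and other interneurons of caudal origin, averaged 3.08 ± 0.666 TPM in 2P-Im and 4.21 ± 0.387 TPM in wild type (-0.37 ± 0.12, adjusted p = 0.456). Slc6a11, the GABA transporter GAT-3 of astrocytes, averaged 41.4 ± 10.1 TPM in 2P-Im and 55.7 ± 10.4 TPM in wild type (-0.44 ± 0.17, adjusted p = 0.548). In AppNLGF vehicle against wild type the smallest p of the identity genes was that of Dlx5, a transcription factor of the interneuron lineage, at 3.92 ± 0.834 TPM in vehicle and 5.36 ± 1.18 TPM in wild type (-0.37 ± 0.15, adjusted p = 0.930).

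In APP/TAU 2P-Im against vehicle all 12 tested peptide receptor genes had a fold change below 0 (median -0.29, all genes -0.19), and after scaling 10 of 12 (median -0.09). Crhr1, the receptor of the Crh peptide, averaged 13.4 ± 0.955 TPM in 2P-Im and 17.5 ± 2.58 TPM in vehicle (log2 fold change -0.35 ± 0.12), and Cckbr, the brain receptor of cholecystokinin, averaged 9.32 ± 1.12 TPM in 2P-Im and 12.6 ± 2.05 TPM in vehicle (-0.39 ± 0.14). Both had a limma adjusted p of 0.167. In APP/TAU vehicle against wild type, Nos1, the neuronal nitric oxide synthase of a class of Sst and Npy cells, averaged 23.1 ± 4.10 TPM in vehicle and 17.0 ± 2.09 TPM in wild type (0.41 ± 0.12, adjusted p = 0.121), and after scaling 20.7 ± 1.75 in vehicle and 17.7 ± 1.01 in wild type (0.21 ± 0.06, adjusted p = 0.182).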

How the data were processed

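Brain RNA was extracted with Sepasol and made into directional libraries with an MGIEasy kit, per the labels' protocols. The authors deposited TPM values, made with Salmon on GRCm38/mm10 per the submitters' processing notes; read counts were not used here, so the depth behind a value is unknown. TPM is relative to the library, and the authors' first table lists transcript rows beside gene rows. All columns were mapped by name, and 51327 of 55804 gene rows have a symbol. Each table was fitted separately with limma 3.58.1 (R 4.3.3) on log2(TPM + 1), all 3 groups together, for gene rows with a mean of at least 1 TPM, with trend and Benjamini-Hochberg adjustment at 0.05; fold changes on this scale are understated for low genes. Median-ratio scaling divides each library by the median ratio to the geometric mean. Correlations used seed 7. The fit was tested on simulated data. The text names all 10 members in each comparison and, of other lists, the genes with the smallest p. Members, lists and the split by replicate number were chosen with earlier results of these data known. Alternatives were another pseudocount and filter, other scalings, library weights, a replicate block and leaving out each library. Same-numbered libraries correlated weakly, at -0.08 to 0.12, and numbers were not used as pairs.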

Additional observations from a re-analysis of the deposited data

Results flagged for a closer look

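In 40 groups of libraries examined, 1 in 20 of which chance would flag, the following stood apart. Slc32a1 in the fourth 11-month wild-type library was 64.9 TPM, while the other 4 ran from 40.7 to 47.5 TPM, a gap of 0.72 of the group's range. Cck in the fifth APP/TAU vehicle library was 119.4 TPM, while the other 4 ran from 168 to 179 TPM, a gap of 0.81 of the range. By a separate rule, for which no share over all genes was computed, Gad1 went opposite ways in the models' vehicle groups as deposited. All 11 AppNLGF vehicle libraries lay below the mean of their wild type, by -19.3 TPM on average, and all 5 APP/TAU vehicle libraries lay above the mean of theirs, by 15.3 TPM on average; the difference was not tested, and after scaling the APP/TAU log2 fold change was 0.02.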

How the results depend on the processing

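The count of members called stayed at 0 except in 3 alternatives on deposited TPM. With a replicate block, AppNLGF 2P-Im against wild type called 1 member, Gad1 (log2 fold change -0.37, limma adjusted p = 0.0326), beside 19.2% of all genes, and 0 members with block and scaling together. With a term for numbers of 6 or higher it called 3 (Gad1, Gad2 and Npy), beside 30.7% of all genes, and 0 with scaling. With library weights, APP/TAU 2P-Im against vehicle called 6 (Gad1, Gad2, Slc32a1, Sst, Vip and Cck), beside 41.5% of all genes. The cause was not tested. Adding transcript rows, and combining scaling with the number term or with the Xist limit, were chosen after seeing the data. The block changed no other count of calls. Same-numbered libraries correlated at -0.08 to 0.12 and were not treated as pairs. The most alike library of the other group bore the same number for 3 of 4 libraries in AppNLGF 2P-Im against wild type. That held for 2 of 11 in AppNLGF 2P-Im against vehicle and 0 of 4 in vehicle against wild type. In the same comparisons of APP/TAU the counts were 3 of 5, 1 of 5 and 1 of 5 in that order. Leaving out each library in turn gave a lowest and highest count of 0 in every comparison. Among the single fold changes, 884 of 894 other alternatives kept their side of the threshold and 10 passed it newly. The sign changed in 124 of these 894, and in 408 of 2580 fold changes when each library was left out in turn. Over the APP/TAU-table libraries 10 pairs correlated past the threshold as deposited against 0 after scaling. Slc32a1 with Sst went from no relation after scaling (r = -0.02, adjusted permutation p = 0.998) to r = 0.69 as deposited. Crh has no value with a minimum mean of 5 TPM.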

Other observations

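The genes whose levels ran most like those of each member over the 28 AppNLGF-table libraries (scaled, group means removed, 16300 genes compared by Pearson's r, no test) were as follows. For Gad1 they were Bbc3 (r = 0.81), Pbx3 (0.73) and Nrarp (0.72), and for Gad2 Lhfpl3 (0.87), Spock3 (0.87) and Klhl13 (0.87). For Slc32a1 they were Fat1 (r = 0.90), Gpr149 (0.89) and Rap1gap (0.88), and for Pvalb Slc25a33 (0.80), Ddb1 (0.79) and Chchd10 (0.78). For Sst they were Fam171a2 (r = 0.81), Ap1s1 (0.79) and Selenow (0.77), for Npy Dlgap3 (0.84), Cdk5r2 (0.83) and Brsk1 (0.83), for Vip Sgsm2 (0.85), Tmem132a (0.82) and Strn4 (0.81), and for Cck Dgkz (0.83), Fxyd7 (0.81) and Nrgn (0.79). For Crh they were Tmem39a (r = 0.72), Abhd12 (0.70) and Brsk2 (0.64), and for Tac2 Parl (0.77), Pgm1 (0.72) and Ndufb3 (0.70).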
